A study of Mus musculus with 8 samples.

Results

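Genes for the uptake of apoptotic cells by alveolar macrophages were examined as a set of 10 named genes, chosen by symbol for their role, with earlier results of these data known. The set holds the bridging molecules Mfge8, Gas6 and Pros1, the receptors Mertk and Axl, the engulfment adaptors and exchange factors Gulp1, Elmo1, Dock1 and Dock2, and the lipid transporter Abca7. Of the 10 genes, 9 had a row among the 12367 genes of the expression table, and all 9 passed the filter on low values, whereas Gulp1 was not analysed here. Polyadenylated RNA was sequenced from CD45+ F4/80+ CD11c+ cells that had been flow-sorted from the lungs of untreated mice aged 3 weeks. The experimental group, CD11c-Cre Tfam-fl/fl (KO), carried floxed Tfam and a Cre recombinase under CD11c control, and the control group, Tfam-fl/fl (WT), carried the same floxed alleles and no Cre. There were 4 libraries of either genotype. Cells of 3 to 5 mice, male, female or both, were combined for every library, and the replicates are therefore separate pools. No group had the Cre without floxed Tfam, and CD11c-driven Cre also acts in other CD11c+ cells, such as dendritic cells, and what Cre activity alone does and what loss of Tfam does cannot be told apart. The only comparison is KO against WT.

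Clearance of dying cells, or efferocytosis, begins when phosphatidylserine appears on the outside of an apoptotic cell. Bridging molecules bind this lipid at one end and a receptor on the phagocyte at the other: Gas6 and protein S (Pros1) bind receptor tyrosine kinases of the TAM family, among them Mertk and Axl, and Mfge8 binds integrins. The signal is passed to complexes of Elmo and Dock proteins, which activate the GTPase Rac and remodel actin around the corpse. In lung, alveolar macrophages clear dying cells from the air spaces, and they are known for high Axl.

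Tfam, the mitochondrial transcription factor that the Cre deletes, was at 3.52 to 5.08 in the KO libraries and 26.1 to 35.2 in the WT libraries, so that the labels held in every library. Values here are the deposited signal on a per-million-reads scale, in which 3 reads are worth 0.102 to 0.152 in KO and 0.1 to 0.118 in WT libraries. This floor covers counting error only. The libraries held 20243772 to 30263201 reads (KO) and 24776683 to 29161957 reads (WT) in the listed genes. On the second principal component the libraries ran from -15.4 in WT replicate 3 to 25.6 in WT replicate 4, with KO replicate 4 at 14.1. All 13 alveolar macrophage markers examined were present, with summed values of 35469 to 40839 in KO and 34517 to 37065 in WT. Most of this sum was Chil3, at 24490 to 30293 in KO and 22376 to 25450 in WT. Of the 13, 5 were lower in KO, Ear1 (log2 fold change -2.81), Ear2 (-2.26), Siglecf (-1.36), Krt79 (-1.08) and Cidec (-1.05). The 3 that were higher were Itgax (0.90), Car4 (0.89) and Plet1 (0.29). Of 10 markers of interstitial or other macrophages, 8 were measured and 5 were higher in KO, with a summed value of 55.7 to 167 in KO and 31.6 to 54.4 in WT, which do not overlap. Of 11 markers of B, T and NK cells only Ms4a1 was measured, at 0.436 to 1.14 in KO and 0.769 to 1.47 in WT. Fibroblast and smooth muscle markers (8 of 9 measured) summed to 24.1 to 58.5 in KO and 17.9 to 81.9 in WT. In bulk RNA, a change in the number of cells of one type and a change in RNA per cell cannot be told apart.

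The uptake genes did not move as a block. In KO macrophages Mfge8 rose about 10.7-fold, while Pros1 fell by 31.2%, Axl fell by 32.1%, Abca7 fell by 20.5% and Dock2 fell by 12.35%. Mertk, Gas6, Elmo1 and Dock1 did not pass the test. Of the 9 measured genes 1 was higher and 4 were lower in KO (limma, Benjamini-Hochberg adjusted p under 0.05 over all tested genes). Among all 12163 tested genes 38.7% were called, 18.7% as higher and 20% as lower. The values of KO and WT libraries did not overlap for 5 of the 9 genes, and did not overlap for 37.7% of all tested genes. The median log2 fold change of the 9 genes was -0.051, against -0.0063 over all tested genes.

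**Figure D1:**
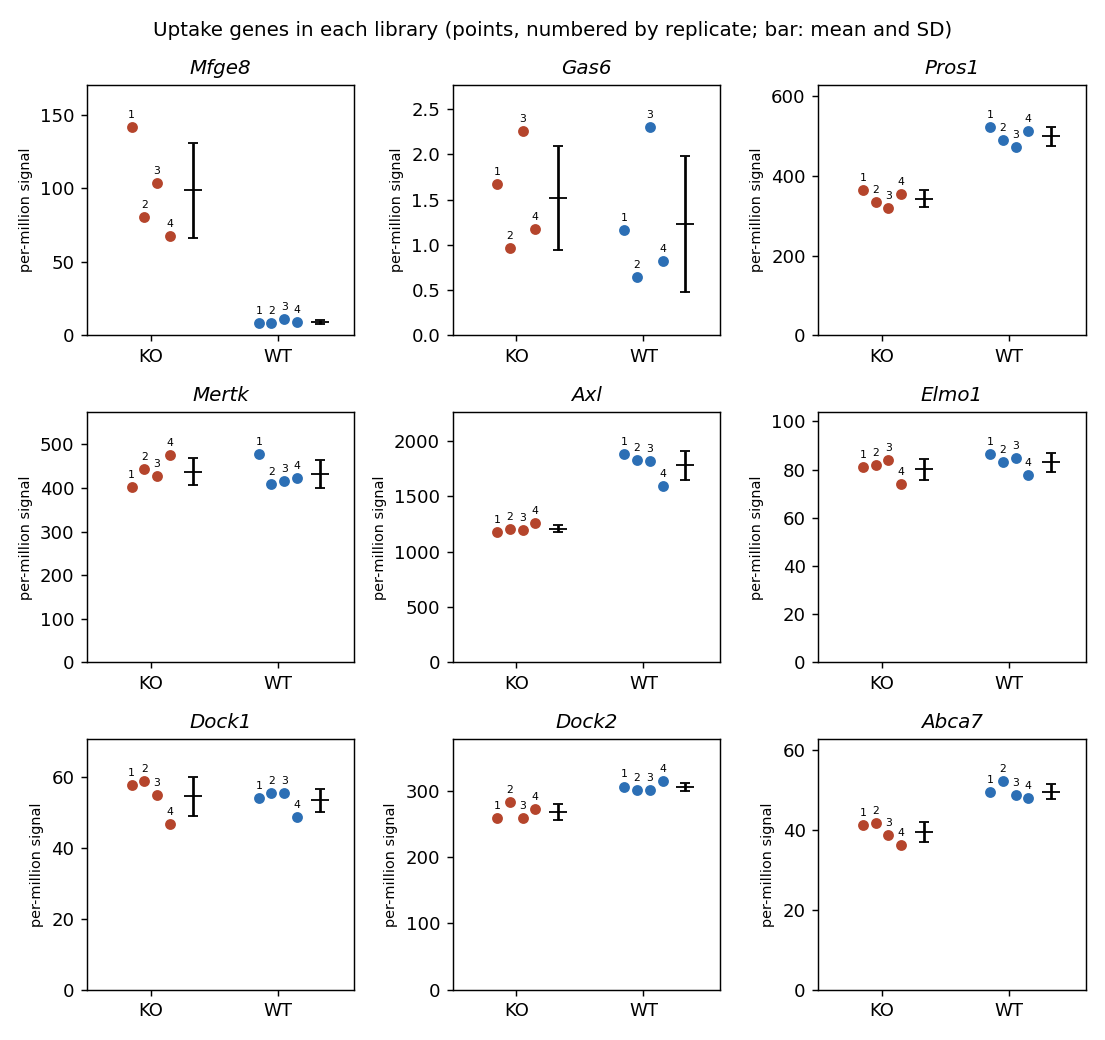
Per-million signal of the 9 measured uptake genes in each library, with one panel per gene, KO left of WT, points numbered by replicate, and a bar for the mean and SD of the 4 libraries. Mfge8 lies between 67.7 and 142 in KO and at or below 11.03 in WT, whereas the KO and WT points of Mertk, Gas6, Elmo1 and Dock1 share a range.

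The 250 bases before the annotated start of Mfge8, which rose, and of Pros1 and Axl, which fell by like amounts, are shown to set the start regions of the genes with the largest changes side by side. They are taken from RefSeq on build GRCm38.p6, 5' to 3' on the strand of the gene, with matches to the GC box GGGCGG, on either strand, in capitals. The windows are chr7:79149061-79149310 (minus strand) for Mfge8, chr16:62854057-62854306 (plus strand) for Pros1 and chr7:25788734-25788983 (minus strand) for Axl.
Mfge8: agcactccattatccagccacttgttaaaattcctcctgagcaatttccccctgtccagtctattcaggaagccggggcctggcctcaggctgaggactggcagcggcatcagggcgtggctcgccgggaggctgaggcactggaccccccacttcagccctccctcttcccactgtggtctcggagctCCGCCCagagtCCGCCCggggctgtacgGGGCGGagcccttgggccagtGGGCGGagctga
Pros1: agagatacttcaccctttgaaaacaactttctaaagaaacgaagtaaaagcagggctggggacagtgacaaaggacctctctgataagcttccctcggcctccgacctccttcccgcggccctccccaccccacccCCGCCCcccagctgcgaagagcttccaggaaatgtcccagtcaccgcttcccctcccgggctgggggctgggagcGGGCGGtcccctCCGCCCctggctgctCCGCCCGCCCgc
Axl: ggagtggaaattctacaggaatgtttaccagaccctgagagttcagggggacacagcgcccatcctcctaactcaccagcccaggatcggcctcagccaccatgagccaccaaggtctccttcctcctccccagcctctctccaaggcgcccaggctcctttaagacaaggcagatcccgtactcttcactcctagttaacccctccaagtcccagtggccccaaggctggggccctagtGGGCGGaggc
The Mfge8 window held 4 GC boxes, all within 61 bases of the start, the Pros1 window held 5, the last 2 of which overlap, and the Axl window held 1. GC content was 65.2%, 64.4% and 60% in this order, against a median of 52.4% over 32851 such windows of the RefSeq table. A GC box was present in a window of 8 of the 9 genes (all but Dock2) and in 32.7% of all windows. Elmo1 had 2 windows, and the one at chr13:20472740-20472989 held 0 matches. The share is per window and the count per gene, and the windows were not matched for GC content. The same windows were searched on both strands for the E-box CACGTG of lysosomal genes, the nuclear receptor motif AGGTCA, the Maf motif TGCTGA, the ATF4 composite motif TGATGNAA, the AP-1 motif TGANTCA and the PU.1 motif GAGGAAGT. Each of these had 0 matches in the 9 genes, and they occur in 6.02%, 14.0%, 16.1%, 3.45%, 6.75% and 2.44% of all windows, in the order given. The TATA box TATAAA, present in 12.4% of all windows, was found in Elmo1 alone among the 9. These matches describe letters in these windows and are not evidence of binding.

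Mfge8 (ENSMUSG00000030605; GRCm38 chromosome 7, 79133768 to 79149060, minus strand) encodes a secreted glycoprotein that links phosphatidylserine to integrins on the phagocyte. It was at 142, 80.4, 104 and 67.7 in KO replicates 1 to 4, against 8.07, 8.35, 11.03 and 9.28 in WT replicates 1 to 4. Every KO library lay above every WT library by a wide margin, and the KO libraries spread more among themselves. The means were 98.4 ± 32.5 in KO and 9.18 ± 1.34 in WT (SD, n = 4 each), with a coefficient of variation of 33.1% in KO and 14.5% in WT. On the log2(value + 1) scale, which understates changes of low genes, KO exceeded WT by 3.24 (SE 0.202; adjusted p from limma 3.91e-06), the 10th highest difference of the 12163 tested genes. All 4 same-numbered pairs of pools had more Mfge8 in KO, by 2.74 to 3.98 log2 units. These values rest on 1473 to 3092 reads in KO and 204 to 289 reads in WT libraries.

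Markers of other macrophages were also higher in KO, in 5 of the 8 measured. Their summed value was 167, 55.7, 84.3 and 108 in KO replicates 1 to 4, against 54.4, 31.6, 48.6 and 34.0 in WT replicates 1 to 4. Mfge8 in the same order was at 142, 80.4, 104 and 67.7 in KO and at 8.07, 8.35, 11.03 and 9.28 in WT. The part of these cells in the result was not tested, and without KO replicate 1 the log2 fold change of Mfge8 was 3.05.

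Pros1 (ENSMUSG00000022912; chromosome 16, 62854307 to 62929346, plus strand) encodes protein S, a vitamin K dependent ligand of Mertk that also serves as an anticoagulant cofactor. Its values were 366, 334, 319 and 353 in KO replicates 1 to 4 and 524, 489, 472 and 512 in WT replicates 1 to 4. The highest KO library lay below the lowest WT library, and the spread within each genotype was small. Pros1 averaged 343 ± 20.5 in KO and 499 ± 22.9 in WT, which is -0.54 in log2 fold change (SE 0.0577; adjusted p from limma 8.19e-05). The 4 same-numbered pairs gave near-equal differences, from -0.56 to -0.52.

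Gas6 (ENSMUSG00000031451; chromosome 8, 13465374 to 13494490, minus strand), the other TAM ligand, binds Axl with high affinity and was scarce in these cells. It was at 1.67, 0.968, 2.26 and 1.17 in KO replicates 1 to 4 and at 1.16, 0.640, 2.30 and 0.816 in WT replicates 1 to 4. Replicate 3 was highest in both genotypes and replicate 2 lowest, and the ranges overlap almost fully. The means were 1.52 ± 0.577 in KO and 1.23 ± 0.748 in WT, with a log2 fold change of 0.20 (95% interval -0.35 to 0.75, limma adjusted p = 0.557). The values rest on 25 to 44 reads in KO and 17 to 60 reads in WT libraries, and 5 of the 8 libraries reached the filter value of 1. Summed fibroblast and smooth muscle markers were also highest in replicate 3 of both genotypes, at 58.5 in KO and 81.9 in WT, and lowest in replicate 2, at 24.1 in KO and 17.9 in WT. Sums of epithelial markers, at 246 in KO and 251 in WT, were likewise highest in replicate 3 of both genotypes. So were those of endothelial markers other than Vwf, at 53.8 in KO and 96.6 in WT. A large share of the epithelial sums was Cdh1 alone, at 97.7 to 142 in KO and 86.5 to 110 in WT libraries. The part of any of these cells in the Gas6 values was not tested. Exons of Gas6 overlap those of Tmem255b on the opposite strand, and although the library kit keeps the strand, the sources used here do not say whether counting used it, so that reads of the pair may have been mixed.

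Scaled to the length of annotated exons, the bridging molecules took different places in KO and WT. Pros1 was at 84.0 ± 5.03 per kilobase in KO and 122 ± 5.61 in WT, Mfge8 at 21.0 ± 6.93 in KO and 1.96 ± 0.284 in WT, and Gas6 at 0.596 ± 0.226 in KO and 0.483 ± 0.294 in WT. The ratio of Pros1 to Mfge8 within a library was therefore 2.96 to 5.99 in KO, against 49.2 to 74.5 in WT. Pros1 remained the most abundant of the 3 transcripts in both genotypes. This scale takes all annotated exons of a gene as its length, and so depends on which isoforms are in use.

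**Figure D2:**
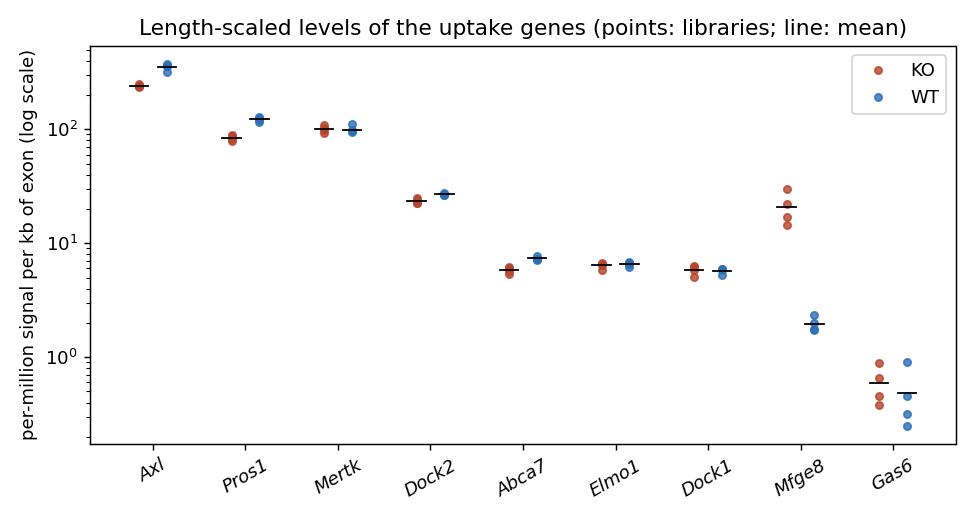
Per-million signal per kilobase of annotated exon (log axis) for the 9 measured uptake genes, ordered by the WT mean, with KO points left of WT points and a line at each mean. Mfge8 lies at 21.0 in KO and 1.96 in WT, so that it stands next to Dock2 in KO and below every gene but Gas6 in WT.

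Of the TAM receptors, Axl fell and Mertk did not pass the test. Axl (ENSMUSG00000002602; chromosome 7, 25757273 to 25788705, minus strand) had values of 1176, 1202, 1195 and 1253 in KO replicates 1 to 4, against 1880.4, 1824, 1815 and 1588 in WT replicates 1 to 4. All KO libraries lay below all WT libraries, and the KO values were the more uniform. The means were 1207 ± 32.8 in KO and 1777 ± 129 in WT, which is -0.56 on the log2 scale (SE 0.0622; adjusted p from limma 0.000108). WT replicate 4 had the lowest WT value and KO replicate 4 the highest KO value, and that pair showed the smallest difference, -0.34, against -0.68 to -0.60 in the other pairs.

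Mertk (ENSMUSG00000014361; chromosome 2, 128698956 to 128802894, plus strand) encodes the TAM kinase that macrophages use for the uptake of apoptotic cells at rest, and it is known as a target of the oxysterol receptors LXR. It was at 402, 444, 427 and 475 in KO replicates 1 to 4 and at 478, 408, 415 and 423 in WT replicates 1 to 4. The ranges of the genotypes nearly coincide. The means were 437 ± 30.7 in KO and 431 ± 31.8 in WT, with a log2 fold change of 0.02 and a 95% interval of -0.13 to 0.17 (limma adjusted p = 0.848). The sign of this small value turned under quantile normalisation, to -0.074, and without KO replicate 4 or WT replicate 2, to -0.021 and -0.0051.

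Within each library, Axl exceeded Mertk per kilobase of exon, by a ratio of 2.27 to 2.52 in KO and 3.23 to 3.85 in WT. The levels per kilobase were 239.7 ± 6.52 for Axl and 101 ± 7.08 for Mertk in KO, against 353 ± 25.7 and 99.4 ± 7.33 in WT. Tyro3, the remaining TAM receptor, was not analysed here.

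**Figure D3:**
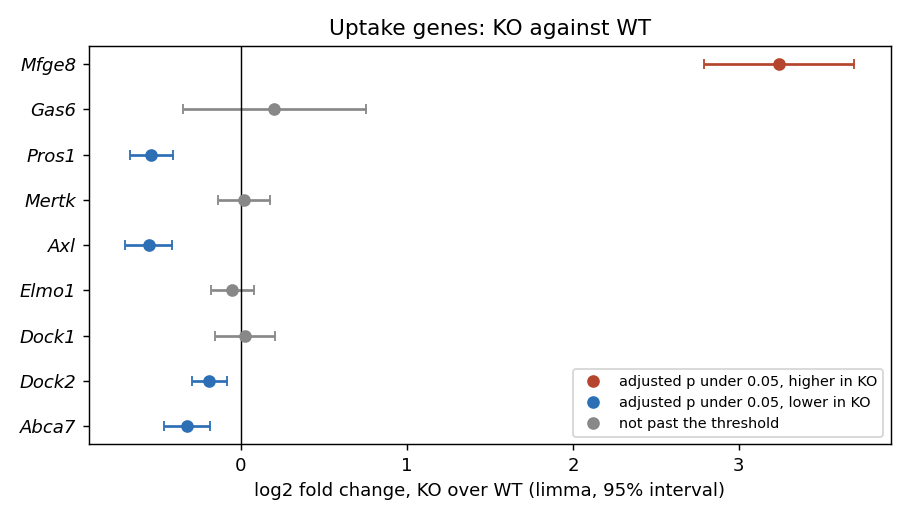
Log2 fold change of KO over WT with its 95% interval (limma on log2(value + 1)) for the 9 measured uptake genes, coloured by whether the adjusted p over all tested genes was under 0.05. Mfge8 stands alone at 3.24, while the intervals of Pros1, Axl, Abca7 and Dock2 lie below 0 and those of Gas6, Mertk, Elmo1 and Dock1 include it.

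Downstream of the receptors, the Dock exchange factors gave different results. Dock2 (ENSMUSG00000020143; chromosome 11, 34226815 to 34783892, minus strand), the Rac exchange factor of blood cells, was at 259, 283, 259 and 273 in KO replicates 1 to 4 and at 307, 302, 301 and 315 in WT replicates 1 to 4. The KO libraries all lay below the WT libraries, although the gap was narrow. It averaged 268 ± 11.98 in KO and 306 ± 6.43 in WT, which is -0.19 on the log2 scale (SE 0.0473; adjusted p from limma 0.0104). Dock2 shares exonic sequence with an antisense gene, 4930403D09Rik.

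Dock1 (ENSMUSG00000058325; chromosome 7, 134670654 to 135173639, plus strand), the widely expressed relative, was at 57.6, 58.8, 54.8 and 46.7 in KO replicates 1 to 4 and at 54.1, 55.4, 55.4 and 48.6 in WT replicates 1 to 4. Replicate 4 was lowest in both genotypes and the ranges overlap. The log2 fold change was 0.03 (95% interval -0.16 to 0.21, limma adjusted p = 0.834), and its sign turned without KO replicate 1, KO replicate 2 or WT replicate 4, to between -0.018 and -0.0027. Per kilobase of exon Dock2 exceeded Dock1 within each library, by 3.67 to 4.77 times in KO and 4.43 to 5.30 times in WT, ranges that overlap.

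Elmo1 (ENSMUSG00000041112; chromosome 13, 20090596 to 20608353, plus strand), the scaffold that binds Dock proteins, was at 81.3, 81.8, 83.8 and 73.8 in KO replicates 1 to 4 and at 86.5, 83.3, 84.8 and 77.6 in WT replicates 1 to 4. Each KO pool was slightly below its same-numbered WT pool, by 0.017 to 0.09 log2 units, while the ranges overlap. The log2 fold change was -0.051 (95% interval -0.18 to 0.081, limma adjusted p = 0.535). Exons of Elmo1 overlap those of the antisense gene Gm32036.

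Abca7 (ENSMUSG00000035722; chromosome 10, 79996494 to 80015572, plus strand) encodes a lipid transporter, the mammalian relative of the worm engulfment gene ced-7, that promotes phagocytosis by macrophages. It was at 41.2, 41.8, 38.7 and 36.2 in KO replicates 1 to 4, against 49.5, 52.3, 48.9 and 48.0 in WT replicates 1 to 4. The genotypes did not overlap. The means were 39.5 ± 2.57 in KO and 49.7 ± 1.87 in WT, which is -0.33 on the log2 scale (SE 0.0623; adjusted p from limma 0.00258). Per kilobase of exon, the levels of Abca7, Dock1 and Elmo1 had overlapping SD ranges in KO, at 5.85 ± 0.381, 5.84 ± 0.584 and 6.37 ± 0.348, but not in WT, at 7.36 ± 0.277, 5.72 ± 0.348 and 6.60 ± 0.309.

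Other bridging molecules were measured in 10 of 12 named genes, of which 4 rose and 1 fell. Over all tested genes 18.7% were higher and 20% lower. The complement opsonins C1qa, C1qb and C1qc all rose, C1qb to 26.2 ± 15.01 in KO against 7.06 ± 3.16 in WT and C1qc to 11.4 ± 6.55 in KO against 2.68 ± 0.82 in WT. These genes were also on the list of markers of other macrophages given above, whose summed value was higher in KO, and the part of such cells was not tested. Galectin-3, Lgals3, rose to 1612 ± 137 in KO against 1023 ± 83.6 in WT. The phosphatidylserine-binding annexin Anxa2 fell to 1246 ± 44.9 in KO against 1758 ± 49.4 in WT (log2 fold change -0.50, limma adjusted p = 5.66e-05).

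Other uptake receptors were measured in 16 of 23 named genes, of which 6 rose and 2 fell. The shares over all tested genes were 18.7% higher and 20% lower. Itgam, the alpha chain of complement receptor 3, rose to 79.1 ± 14.3 in KO against 13.4 ± 2.5 in WT, a log2 fold change of 2.48 (limma adjusted p = 3.91e-06). The phosphatidylserine-binding inhibitory receptor Cd300a rose to 112 ± 10.1 in KO against 32.8 ± 4.01 in WT, and the lipid receptor Trem2 to 66.2 ± 10.9 in KO against 24.3 ± 3.0 in WT. Scarb1, a scavenger receptor that binds phosphatidylserine and lipoproteins, fell to 108 ± 4.66 in KO against 183 ± 19.2 in WT. Stab1, among the 6 that rose, was low and had overlapping genotypes, at 2.99 ± 1.10 in KO and 1.38 ± 0.811 in WT (limma adjusted p = 0.0366). Its call was lost without any one of KO replicates 1 to 3 or WT replicates 1, 2 and 4 (limma adjusted p between 0.0572 and 0.0974). Of the integrin chains of known Mfge8 receptors, Itgb3 was not analysed here, and Itgav and Itgb5 did not pass the test. Itgav was at 55.9 ± 4.67 in KO and 50.8 ± 2.99 in WT (limma adjusted p = 0.179), and Itgb5 at 172 ± 27.5 in KO and 202 ± 10.3 in WT (limma adjusted p = 0.0881). With the replicate number as a block Itgb5 was called lower (limma adjusted p = 0.0144), as it was without KO replicate 4 (limma adjusted p = 0.00405).

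Of 7 measured genes on a list of inhibitory receptors and ligands, 4 were lower and 1 was higher. Over all tested genes 20% were lower and 18.7% higher. The inhibitory receptor Cd300a, which rose, was counted with the uptake receptors above and not on this list. Pilra, an inhibitory receptor of myeloid cells, fell to 55.8 ± 11.5 in KO against 214.8 ± 20.0 in WT (log2 fold change -1.94, limma adjusted p = 5.75e-06), and the sialic acid lectin Siglece to 16.4 ± 3.77 in KO against 48.5 ± 8.92 in WT. Cd47, the ligand that signals against uptake, fell to 720.2 ± 30.4 in KO against 1019 ± 25.5 in WT, and Cd24a to 67.8 ± 12.8 in KO against 89.0 ± 5.38 in WT. The call of Cd24a was lost without KO replicate 2, KO replicate 4, WT replicate 3 or both replicate 4 libraries, with limma adjusted p between 0.0509 and 0.0646. Sirpa, the receptor of Cd47, was at 2008 ± 49.7 in KO and 1912 ± 54.8 in WT (limma adjusted p = 0.292). The gene that was higher, Lilrb4a, had overlapping genotypes, and its call was lost when any one of KO replicates 1 to 3 or WT replicates 1 to 3 was left out, with limma adjusted p between 0.059 and 0.0985.

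Signalling to Rac was measured in 21 of 23 named genes beside the uptake genes, of which 11 fell and 2 rose. The shares over all tested genes were 20% lower and 18.7% higher. The median log2 fold change of this list was -0.13, against -0.0063 over all tested genes. Arhgap25, a GTPase-activating protein for Rac, fell to 80.1 ± 4.14 in KO against 119 ± 3.44 in WT, and the Elmo1 relative Elmo2 to 114 ± 2.46 in KO against 156 ± 4.5 in WT. Dock5 fell to 90.8 ± 10.9 in KO against 142 ± 6.64 in WT (log2 fold change -0.64, limma adjusted p = 0.000247), and Nckap1l, a subunit of the WAVE actin-regulating complex, to 327 ± 21.7 in KO against 397 ± 7.48 in WT. Rac1 itself was lower by a small margin, at 673 ± 38.2 in KO and 749 ± 12.9 in WT (limma adjusted p = 0.0378). This call was lost without any single library but KO replicate 4 (limma adjusted p between 0.0621 and 0.0983). It was also lost with scaling by medians (limma adjusted p = 0.0622). The genes that rose were Vav3, an exchange factor, and Ptk2, focal adhesion kinase, which was low at 6.76 ± 1.25 in KO and 2.77 ± 1.54 in WT. The 11 lower genes were 7 without KO replicate 3 and 8 with scaling by medians. With the replicate number as a block the 2 higher ones were 4, with Crk and Nckap1 added, and the 11 lower ones 10, without Crkl.

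**Figure D4:**
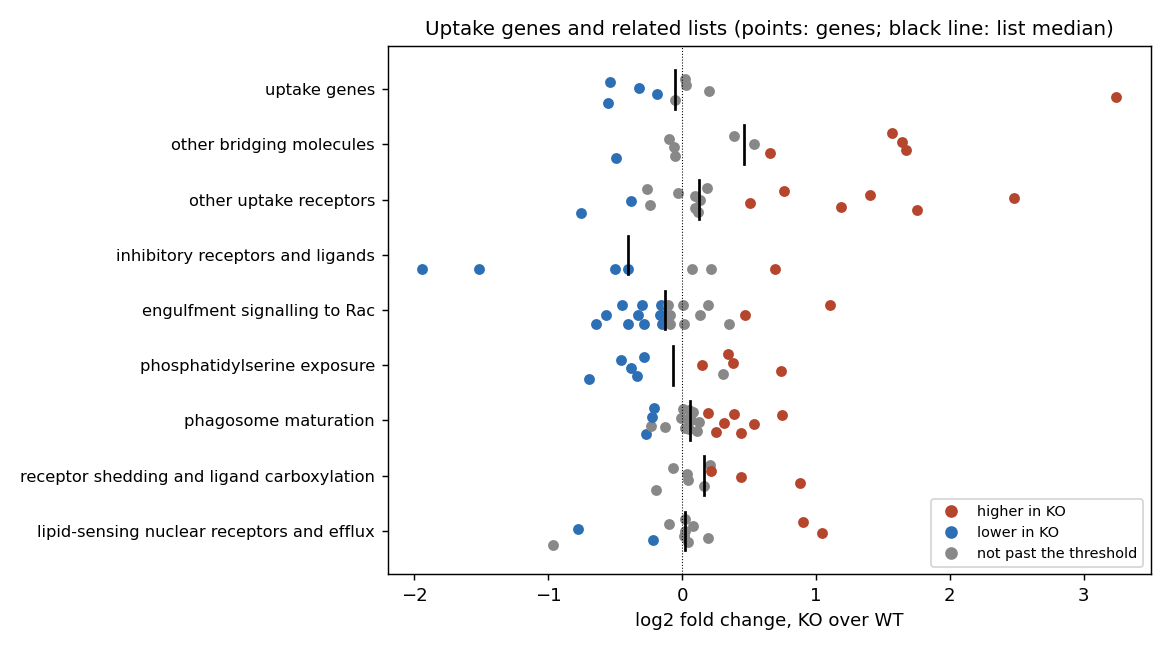
Log2 fold change of KO over WT for the measured uptake genes and 8 related lists, with points for genes coloured by call and a black line at the list median. Mfge8 at 3.24 is the rightmost point. In the list of signalling to Rac 11 of 21 points are lower in KO, against 20% of all tested genes.

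The machinery that flips phosphatidylserine across membranes changed in both directions, with 4 of 10 genes higher and 5 lower. The scramblase-family gene Plscr1 fell to 116 ± 12.4 in KO against 189 ± 15.9 in WT, and the scramblase Ano6 to 165 ± 8.41 in KO against 209 ± 5.73 in WT. Of the flippases, Atp11a rose to 85.0 ± 9.87 in KO against 50.5 ± 7.22 in WT, whereas Atp8a1 fell to 39.3 ± 2.73 in KO against 54.3 ± 2.4 in WT. Genes of phagosome maturation rose in 7 of 22 cases and fell in 3. For both lists, the shares over all tested genes were 18.7% higher and 20% lower. The lysosomal membrane proteins Lamp1 and Lamp2 rose, Lamp1 to 1954 ± 79.8 in KO against 1167 ± 64.5 in WT, as did Rab7, the GTPase of late endosomes, to 539.6 ± 6.69 in KO against 398 ± 4.71 in WT, and Cyba, a subunit of the phagocyte oxidase, to 455 ± 27.7 in KO against 366 ± 13.6 in WT. The 3 that fell were Pik3c3 and Pik3r4, subunits of the class III phosphoinositide kinase, and Rab5c. The call of Pik3r4 was lost when KO replicate 1, KO replicate 3, WT replicate 1 or WT replicate 2 was left out, with limma adjusted p between 0.0515 and 0.0734.

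Of 9 measured genes that shed TAM receptors, regulate shedding or carboxylate Gas6 and protein S, 3 rose and 0 fell. At an unadjusted limma p under 0.05 the count of lower genes was also 0, and it was 0 with voom weights. Rhbdf2, which escorts the shedding protease Adam17, rose to 47.4 ± 2.69 in KO against 34.7 ± 2.18 in WT, and the protease inhibitor Timp2 to 44.2 ± 8.25 in KO against 23.4 ± 3.91 in WT. Adam17 was at 239 ± 25.9 in KO and 205 ± 6.87 in WT, with overlapping genotypes (limma adjusted p = 0.0486), a call lost without any single library but KO replicate 1. Ggcx, the vitamin K dependent carboxylase, and Vkorc1, which recycles vitamin K, did not pass the test, with Vkorc1 at 26.7 ± 3.15 in KO and 23.0 ± 1.86 in WT. Among 12 lipid-sensing receptors and efflux genes 2 rose and 2 fell. For this list and the shedding genes, the shares over all tested genes were 18.7% higher and 20% lower. Nr1h3, which encodes LXR alpha, rose to 84.8 ± 5.15 in KO against 44.8 ± 4.09 in WT (log2 fold change 0.91, limma adjusted p = 2.20e-05), and the lipid carrier Apoe to 156 ± 35.8 in KO against 74.8 ± 17.5 in WT. The mitochondrial carrier Ucp2 fell to 1069 ± 115 in KO against 1826 ± 125 in WT, and the sterol exporter Abcg1 to 1711 ± 61.0 in KO against 1992 ± 131 in WT, a call lost without KO replicate 3 (limma adjusted p = 0.0544).

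The genes whose pattern over the 8 libraries was most like that of each changed uptake gene were found by Pearson's r of log2(value + 1) among 5950 genes of at least median level. These were Bcap31 (r = 0.995) and Aldh2 (r = 0.995) for Mfge8, Themis2 (r = 0.995) and Iqgap2 (r = 0.995) for Pros1, and Nasp (r = 0.994) and Ncoa2 (r = 0.992) for Axl. They were Cnot1 (r = 0.988) and Kmt2e (r = 0.988) for Dock2, and Pip5k1c (r = 0.982) and Prune2 (r = 0.981) for Abca7. These values span both genotypes, no correlation within a genotype was computed, and 371 genes exceeded an r of 0.95 with Mfge8 and 55 with Abca7.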

How the data were processed

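Per the submitters' processing notes, the tools included RSEM 1.3.1, cutadapt 1.7.1, limma and CASAVA 1.8.2, on build GRCm38. Aligner, annotation release and strand setting are not given. The authors deposited 1 normalised signal value per gene and library, which is not a raw count. Each value equals a whole read number plus 0.5 on a scaled per-million scale, in 100% of values at a tolerance of 0.01. These read numbers gave depths, floors, the voom alternative and the basis of the simulated data, and did not enter the main test.

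The test was limma 3.58.1 (R 4.3.3) on log2(value + 1), two-sided and with a variance trend. Genes needed a value of 1 or more in 4 libraries, and calls an adjusted p under 0.05 (Benjamini-Hochberg, all genes). The steps were tested on simulated data. Groups and replicate numbers came from sample titles. Gene coordinates and exon lengths are from GENCODE M21 (GRCm38), which matched 12356 of 12367 identifiers.

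Members and lists were chosen with earlier results of these data known. Named genes are the members, Tfam, up to 4 genes of each list by p, and the 2 genes most like each called member. C1qa, Stab1, Itgav, Itgb5, Sirpa, Lilrb4a, Itgb3, Rac1, Vav3, Ptk2, Crk, Crkl, Nckap1, Pik3c3, Pik3r4, Rab5c, Atg7, Tmem30a, Ggcx and the marker genes were named after their values were seen.

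Same-numbered KO and WT libraries deviated together (correlations of 0.286 to 0.431, against -0.374 to 0.0917 for other pairs), so the numbers were taken to pair the pools, from the data and not from the labels. Alternatives were a replicate block, library quality weights, a threshold of 0.01, leaving out each library, no variance trend, scaling by quantiles or medians, a pseudocount of 0.25 or 5, and no filter or one at 8. Voom weights and leaving out both replicate 4 libraries were added after seeing the data.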

Additional observations from a re-analysis of the deposited data

Results flagged for a closer look

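No uptake gene was flagged in the search below, which with 4 libraries per group picks out only wide gaps. Axl in WT replicate 4, at 1588 against 1815 to 1880 in the other WT libraries, was not flagged. Among 104 groups of 4 libraries (52 genes in KO and WT), 5 held a library whose distance from the nearest other one exceeded Dixon's critical ratio, and chance flags about 1 in 20 groups. Trem2 was at 82.4 in KO replicate 1, against 58.3 to 62.1 in the other KO libraries. Siglece was at 21.9 in KO replicate 4, against 13.9 to 15.2 in the others. Prune2 was at 25.3 in KO replicate 4, against 32.0 to 33.2 in the others. Anxa2 was at 1684.5 in WT replicate 4, against 1776 to 1792 in the other WT libraries. Nasp was at 61.5 in WT replicate 4, against 75.2 to 77.9 in the others.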

How the results depend on the processing

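The 5 calls among the uptake genes kept their direction under all 20 alternatives, and lost their side of the threshold once, Dock2 at an adjusted p under 0.01 (3 lower genes in place of 4). With the replicate number as a block, 1 uptake gene was higher and 4 were lower, the same counts as without it, the adjusted p of Dock2 was 0.00926, and 2730 genes were higher and 2952 lower in all, against 2279 and 2429. The uncalled Mertk turned to -0.074 under quantile normalisation, to -0.029 without both replicate 4 libraries, and lay between -0.021 and 0.0703 when single libraries were left out. The uncalled Dock1 lay between -0.018 and 0.096 when single libraries were left out. Over these leave-outs Mfge8 ranged from 3.05 to 3.4, Pros1 from -0.57 to -0.51, Axl from -0.61 to -0.53, Abca7 from -0.35 to -0.29 and Dock2 from -0.22 to -0.17. The lowest log2 fold change of Mfge8 was 2.82, with a pseudocount of 5, a setting that compresses low values by construction.

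At an adjusted p under 0.01, by construction fewer genes were called, with 1513 higher and 1543 lower in all. At this threshold 0 genes on the list of inhibitory receptors and ligands were higher, and 7 genes of signalling to Rac were lower. Likewise, 1 gene of phosphatidylserine exposure was higher, 1 of phagosome maturation was lower and 1 lipid-sensing or efflux gene was lower. The count of higher genes on the inhibitory list was also 0 without a variance trend. Genes of signalling to Rac that were higher numbered 1 with a minimum of 8 and 4 under the replicate block. When single libraries were left out, the higher genes on the inhibitory list numbered 0 to 1. The lower genes of signalling to Rac then numbered 7 to 11, and the lower lipid-sensing and efflux genes 1 to 2. Elsewhere the cause of these shifts was not tested. Of 839 recomputed values for 42 other named genes, 820 kept their direction and side of the threshold, and the 19 that fell short belonged to 3 genes, Cd24a, Adam17 and Abcg1. Among these 42 genes and the uptake genes the replicate block ended no call, and among all genes of the related lists it ended that of Crkl (adjusted p 0.0523) and added 7. Depth limits Gas6, which rests on 17 to 60 reads per library.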

Other observations

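Some genes on the marker lists of other cell types changed while other genes of their list did not pass the test or changed the other way. The endothelial marker Vwf, which encodes von Willebrand factor, was at 221 to 319 in KO and 66.3 to 128 in WT. The other 6 endothelial markers summed to 33.8 to 53.8 in KO and 23.4 to 96.6 in WT. The value of 96.6 is WT replicate 3, while WT replicates 1, 2 and 4 were at 24.1, 23.5 and 23.4, below every KO library. Without WT replicate 3, Pecam1 of this list was called higher in KO (log2 fold change 0.644, limma adjusted p = 0.0112). Of 5 measured neutrophil markers 1 rose and 2 fell. The chemokine receptor Cxcr2 rose and was at 62.6 to 98.6 in KO and 9.05 to 16.4 in WT, and Csf3r, the receptor for the granulocyte growth factor, fell and was at 14.0 to 23.1 in KO and 50.6 to 58.8 in WT. S100a9 also fell (limma adjusted p = 0.0271) and was at 2.06 to 6.99 in KO and 4.91 to 22.2 in WT, ranges that overlap. S100a8 was at 9.9 to 12.8 in KO and 8.08 to 16.7 in WT and did not pass the test. The monocyte receptor Ccr2 was at 32.6 to 81.8 in KO and 22.6 to 32.5 in WT. Epcam, which alveolar macrophages also express, was at 1.24 to 2.96 in KO and 17.0 to 21.1 in WT.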
